A study of Mus musculus with 12 samples.

Results

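Mir708 and Mir28 are a pair of microRNA (miRNA) hairpin genes whose 5′ mature forms begin with the same seed, and both lie in introns of protein-coding genes. They were chosen by name, as 2 of the 32101 annotated features and of the 1577 miRNA features of a small RNA-seq table, because earlier results of the same libraries had shown their levels. Their levels and differences are therefore given here as a description, without tests. Tests are given for features that the choice did not fix.

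The 12 libraries came from mouse embryonic stem cells (ESCs), pluripotent cells grown from the early embryo, and hold RNAs of 20 to 24 nt. Their genotype labels were wildtype (WT, 6 libraries), Dnmt1 -/- (Dnmt1 KO, 2 libraries) and Dicer/Dnmt1 -/- (Dicer/Dnmt1 KO, 4 libraries). DNMT1 is the methyltransferase that maintains DNA methylation through replication, and DICER is the ribonuclease that cuts miRNA precursors into mature miRNAs. The study's methods describe conditional deletion by an inducible Cre recombinase, and also a constitutive Dicer deletion made with CRISPR/Cas9. The labels do not say which line, which clone or which day after deletion a library came from, and no batch is named.

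All groups are labelled with the background E14, whereas the methods describe the line with floxed Dnmt1 as derived from another strain. A difference of line between WT and the knockouts and the genotype itself cannot be told apart. Libraries that share a number and differ in the letter A or B are taken as 1 culture, and so are Dnmt1 KO A and B, which carry no number. This gives 3 WT cultures, 1 Dnmt1 KO culture and 2 Dicer/Dnmt1 KO cultures. Every value and call for Dnmt1 KO therefore rests on 1 culture. Nothing says whether A and B were grown separately, so p-values may measure technical spread only. The WT libraries 2A and 2B, titled E14 2, stood apart from the other WT libraries (miRNAs took 65.8% and 45.31% of their counts against at most 33.98%), and values that rest on them are also given without them.

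A miRNA gene is transcribed into a long primary RNA, from which DROSHA and DGCR8 release a hairpin, and DICER then cuts the loop away. An intronic hairpin can be cut from the primary transcript of the gene that hosts it. The mature strand is loaded into an ARGONAUTE protein and pairs with target mRNAs mainly through its seed, bases 2 to 8 from its 5′ end. Mature forms that share a seed can recognise overlapping sets of targets. The miR-28 family also takes in Mir151, which was not one of the chosen genes and therefore could be tested. Its mature sequences were not analysed here.

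Both chosen genes matched mature sequences of RefSeq (GRCm38.p6), where Mir28 is named Mir28a. The 4 mature forms are shown because the shared seed is what ties the genes together. Capitals mark the seed, and sequences are written 5′ to 3′.
mmu-miR-708-5p: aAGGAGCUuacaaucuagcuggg
mmu-miR-28a-5p: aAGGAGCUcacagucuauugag
mmu-miR-708-3p: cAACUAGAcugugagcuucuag
mmu-miR-28a-3p: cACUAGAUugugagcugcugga

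Of the 1738 mature miRNAs in the RefSeq table, 2 hold the seed AGGAGCU, and these are the 5p forms of Mir708 and Mir28. The 5p forms were identical at 16 of 22 positions counted from 1 at the 5′ end. They differed by U9C, A13G, G18U, C19U, U20G and G21A, with the base of miR-708-5p first, so that every difference lay behind the seed. The 3p forms did not share a seed, and each 3p seed occurred in 1 of the 1738 mature sequences. These 1738 held no mature sequence of Mir151, so the seed counts do not cover that relative. Without a shift the 3p forms were identical at 2 of 22 positions, but once the first base of miR-708-3p was left out they were identical at 17 of 21. The 3p arms are thus alike in sequence and displaced by 1 base, which places other bases in the seed window.

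A relative with a displaced 5p seed, mmu-miR-28b, is shown for contrast, again with bases 2 to 8 in capitals. Its gene, Mir28b, had no feature in the table used here.
mmu-miR-28b: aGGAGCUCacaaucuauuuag

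Each of the 4 mature sequences of Mir708 and Mir28 occurred 1 time in the NCBIM37 genome, both strands searched for exact matches. A full-length read without mismatches therefore has a single place to map to. The table counts all reads over a hairpin, so the 5p and 3p arms cannot be separated in it.

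Mir708 (ENSMUSG00000076143) lies at chr7:103397934-103398042 on the plus strand (NCBIM37), within Odz4, also called Tenm4, which encodes the transmembrane protein teneurin-4. The hairpin of 109 bases sits in intron 1 of the 33-exon transcript Odz4-001, 78180 bases from the start of the gene, and is intronic in 5 of the 5 coding transcripts that span it. Mir28 (ENSMUSG00000065494) lies at chr16:24827941-24828026 on the plus strand, within Lpp, which encodes a LIM-domain protein of focal adhesions. Its hairpin of 86 bases sits in intron 8 of the 13-exon transcript Lpp-201, 434505 bases from the start of the gene, and is intronic in 3 of 3 coding transcripts. The hairpins are shown on the plus strand of NCBIM37 to place the arms, with the mature forms in capitals.
Mir708: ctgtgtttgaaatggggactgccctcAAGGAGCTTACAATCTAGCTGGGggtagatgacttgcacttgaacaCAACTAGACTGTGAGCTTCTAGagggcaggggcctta
Mir28: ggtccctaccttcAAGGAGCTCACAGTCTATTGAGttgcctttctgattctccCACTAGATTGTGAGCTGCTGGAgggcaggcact

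Values are reads per 1000000 reads of a library (RPM), with whole reads recovered from the deposited log2 values. Libraries held 8710 to 245184 reads, and 1 read was worth 4.08 to 114.81 RPM. A count of 0 allows up to 3 reads, which came to between 12.2 and 344.4 RPM. Intervals and limits cover counting error only. miRNAs took 29.52% to 65.8% of the counts of the WT libraries and 51.36% and 53.44% of those of Dnmt1 KO, but 6.55% to 12.69% where Dicer was deleted as well. Dicer1 had 0 to 3 reads per library, too few to check its deletion. Dnmt1 measured 118.2 and 83.64 RPM in Dnmt1 KO, from 8 and 9 reads, and 0 to 110.3 RPM in WT, so it was not lower in the libraries labelled as deleted. The table does not place reads within a gene, so whether these lay in the deleted part is not known, and they do not check the label. Mir93, which the study used to check the loss of DICER activity, measured 651.3 to 2240 RPM in WT and 19.91 to 114.8 RPM in Dicer/Dnmt1 KO (difference -4.76 in log2(RPM + 10), SE 0.46, limma adjusted p 3.07e-06).

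Mir708 was the more abundant of the pair in WT, was lower in RPM in Dnmt1 KO, and was all but absent from the Dicer/Dnmt1 KO libraries. The 6 WT libraries ran from 433.7 to 777.4 RPM with a median of 627.4 RPM (mean 615.6 ± 128 RPM, SD, n = 6). The lowest value was that of WT 2A, the shallowest WT library, and rests on 7 reads. Without E14 2 the mean was 620.7 ± 85.8 RPM (SD, n = 4), and summed over each culture the 3 WT cultures measured 615, 742 and 583 RPM.

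In Dnmt1 KO, Mir708 measured 428.5 RPM from 29 reads in library A and 371.7 RPM from 40 reads in library B. Both values lay under those of all 6 WT libraries, with WT 2A only just above them. Among the 683 tested features, 5.86% were lower in the same way, without overlap between the groups in RPM. The pooled RPM in Dnmt1 KO was 0.623 times that in WT (95% exact counting interval 0.477 to 0.803), and 0.652 times without E14 2.

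The separation did not hold on the scale used for the fit, in which trimmed means of log ratios (TMM) rescale each library. There the Dnmt1 KO libraries measured 584.8 and 486.9 scaled RPM, inside the WT range of 468.2 to 1073 scaled RPM. The fitted difference of Mir708 between Dnmt1 KO and WT was -0.43 in log2(RPM + 10) with an SE of 0.49, so it was smaller than its error. It came to -0.31 (SE 0.43) without E14 2, to between -0.55 and -0.06 with each library left out in turn, and to -0.06 when scaling used snoRNAs and snRNAs only.

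In Dicer/Dnmt1 KO, Mir708 had 0 reads in libraries 1A, 1B and 2A and 1 read in library 2B, which is 6.64 RPM. The limits that 0 reads allow differ widely, at 122.5 RPM in 1A, 344.4 RPM in 1B and 47.3 RPM in 2A. All 4 libraries lay under every WT and Dnmt1 KO library, and for 1B the limit comes close to the 371.7 RPM of the lower Dnmt1 KO library, so a difference between them was not detectable in that library. Of all tested features, 12.9% had every Dicer/Dnmt1 KO library under every WT library in RPM, and 22.3% had them under both Dnmt1 KO libraries.

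Pooled over libraries, 482 of 762641 WT reads and 1 of 247330 Dicer/Dnmt1 KO reads were Mir708 reads, a ratio of 156 with an exact counting interval of 27.9 to 6187 (149 without E14 2). The ratio of Dnmt1 KO to Dicer/Dnmt1 KO was 97.4 (16.9 to 3901). A single read stands behind both ratios, so their upper ends are wide. The fitted differences were -6.01 (SE 0.39) from WT, or -5.84 without E14 2, and -5.58 (SE 0.52) from Dnmt1 KO in log2(RPM + 10), and with so few reads their size follows the pseudocount of 10 RPM.

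Mir28 had another order of levels, with Dnmt1 KO highest under every scaling of the fit, and WT and Dicer/Dnmt1 KO overlapping in RPM. The WT libraries ran from 131 to 278.2 RPM with a median of 189.9 RPM (mean 194.2 ± 54 RPM, SD, n = 6). The highest was WT 2B, and without E14 2 the mean was 175.3 ± 44.9 RPM (SD, n = 4). The 3 WT cultures measured 141, 269 and 218 RPM when A and B were summed.

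In Dnmt1 KO, Mir28 measured 901.3 RPM from 61 reads in library A and 724.9 RPM from 78 reads in library B (mean 813.1 ± 125 RPM, SD, n = 2 libraries of 1 culture). Both lay far above the highest WT library. Of the tested features, 17.1% had both Dnmt1 KO libraries above every WT library in RPM, by any margin. The pooled level was 4.2 times that of WT (exact counting interval 3.3 to 5.34), and 4.71 times without E14 2. The fitted difference was 2.21 (SE 0.57) in log2(RPM + 10), and 2.48 (SE 0.47) without E14 2.

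In Dicer/Dnmt1 KO, Mir28 measured 204.2, 229.6, 126.1 and 46.45 RPM in libraries 1A, 1B, 2A and 2B, from 5, 2, 8 and 7 reads. The 3 reads that a count of 0 allows are of the same order as several of these values. Libraries 1A and 1B fell inside the WT range in RPM, 2A just under it and 2B clearly under it. All 4 lay under both Dnmt1 KO libraries, which held for 22.3% of all tested features in RPM.

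The pooled WT level of Mir28 was 2.12 times that of Dicer/Dnmt1 KO (exact counting interval 1.35 to 3.49), or 1.89 times without E14 2, and the pooled Dnmt1 KO level was 8.92 times (5.66 to 14.7). Library 2B, which had the lowest level, holds 150701 of the 247330 pooled Dicer/Dnmt1 KO reads. Unweighted, the means were 194.2 RPM in WT and 151.6 RPM in Dicer/Dnmt1 KO, and the medians 189.9 and 165.1 RPM. The fitted difference from WT was -1.30 (SE 0.45) in log2(RPM + 10), but it depended on the scaling and on E14 2. It was -0.49 with library reads alone and -0.71 (SE 0.38) without E14 2. On scaled RPM the 4 Dicer/Dnmt1 KO libraries ran from 45.99 to 119.9, the highest from 5 reads, and the lowest WT library was close at 130.3. In RPM the groups overlapped. Scaling divides RPM by the TMM factor, which was 1.01 to 1.96 in Dicer/Dnmt1 KO and so lowers all features there. How many features were separated in scaled RPM was not counted. The fitted difference from Dnmt1 KO was -3.51 (SE 0.61), and -3.19 (SE 0.47) without E14 2.

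**Figure D1:**
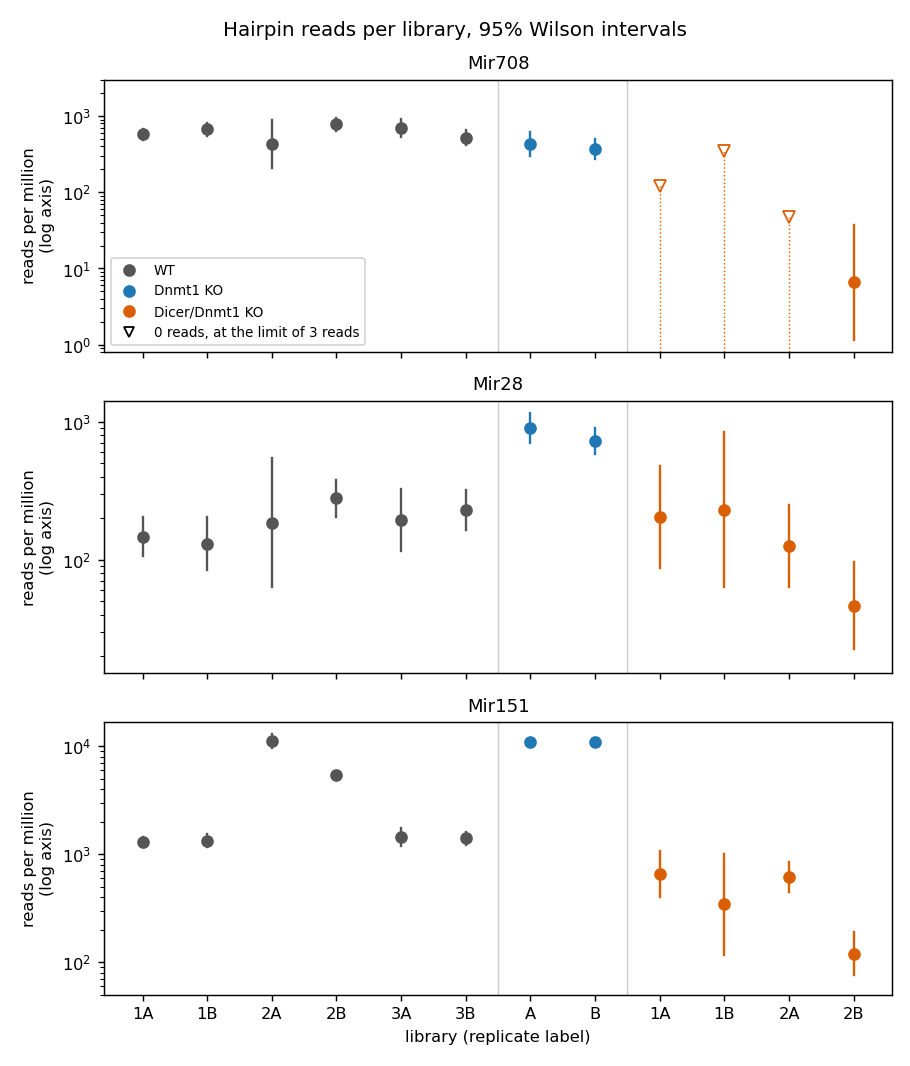
RPM (log axes) of Mir708, Mir28 and Mir151 in each of the 12 libraries, with 95% Wilson intervals as bars and, for 0 reads, an open triangle at the limit of 3 reads. Mir708 lies between 433.7 and 777.4 RPM in WT and has 1 read in all of Dicer/Dnmt1 KO, while Mir28 is highest in the 2 Dnmt1 KO libraries and Mir151 is high there and in WT 2A.

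Relative to all miRNA reads, the picture of Mir28 in Dicer/Dnmt1 KO differed from that in RPM. Its median share of miRNA reads was 0.0522% in WT (0.0268% to 0.0637%) and 0.127% in Dnmt1 KO (0.116% and 0.138%). In Dicer/Dnmt1 KO it was 0.147% (0.0651% to 0.344%). On this scale the lowest Dicer/Dnmt1 KO library, 2B, lay at 0.0651% from 7 reads, close to the highest WT library at 0.0637%. How many other features were higher in the knockouts on this scale was not counted, so no separation of Mir28 is read from it. The share of Mir708 had a median of 0.165% in WT (0.0624% to 0.2%) and 0.0624% in Dnmt1 KO. It was 0% in 3 Dicer/Dnmt1 KO libraries and 0.0093% in 2B. A share of miRNA reads sets a hairpin against the other miRNAs of the same library, whose total was itself lower in Dicer/Dnmt1 KO.

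The balance between the 2 hairpins can be read within each library, with no scaling between libraries. Of the reads of both hairpins, Mir708 took 69.4% to 83.8% in the 6 WT libraries (median 76%), which were 482 of the 626 reads pooled (77%, Wilson interval 73.5 to 80.1). In Dnmt1 KO it took 32.2% of 90 reads in library A and 33.9% of 118 reads in library B (pooled 33.2%, Wilson interval 27.1 to 39.8). The order of the pair was thus turned around, with Mir708 ahead of Mir28 in 6 of 6 WT libraries and behind it in 2 of 2 Dnmt1 KO libraries. The WT libraries are 3 cultures and the Dnmt1 KO libraries 1.

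In Dicer/Dnmt1 KO, Mir708 took 0% of 5, 2 and 8 reads in 1A, 1B and 2A and 12.5% of 8 reads in 2B. Pooled, this was 1 of 23 reads (4.35%, Wilson interval 0.772 to 21), under the pooled share in Dnmt1 KO, although the intervals of the single libraries overlap those of Dnmt1 KO. Without E14 2 the median WT share was 79.2%. Per base of hairpin the balance tilts slightly further towards Mir28, since the annotated Mir708 hairpin is 1.27 times as long.

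**Figure D2:**
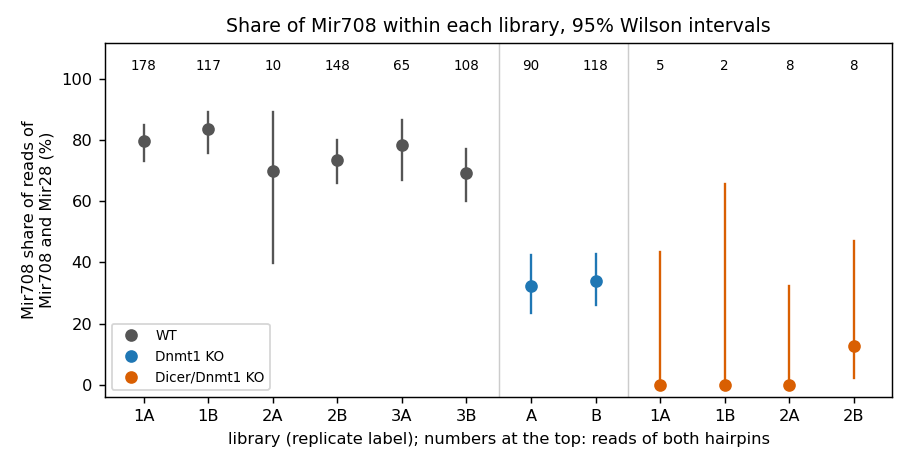
Share of Mir708 among the reads of Mir708 and Mir28 together (percent) in each library, with 95% Wilson intervals and the number of reads of both hairpins at the top. The WT libraries sit between 69.4% and 83.8%, the Dnmt1 KO libraries at 32.2% and 33.9%, and 3 of the 4 Dicer/Dnmt1 KO libraries at 0% on 8 reads or fewer.

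Both hairpins passed the filter on low values. Set among the 133 tested miRNAs, the pair stood at different places. The median difference of all tested miRNAs between Dnmt1 KO and WT was 1.40 in log2(RPM + 10), against 0.13 over all 683 tested features. Mir708 was below that miRNA median, with 14 of the 133 miRNAs having a lower difference, and Mir28 above it, with 98 lower. In this comparison the fit called 6.59% of tested features higher and 0.293% lower (limma adjusted p under 0.05).

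Between Dicer/Dnmt1 KO and WT the median difference of the tested miRNAs was -2.75, against -0.09 over all features. Mir708 was near the low end, with 7 of 133 miRNAs lower, whereas 89 were lower than Mir28. The fit called 19.0% of all tested features lower and 5.12% higher here. Between Dicer/Dnmt1 KO and Dnmt1 KO the miRNA median was -4.17, and 29 of the 133 miRNAs were lower than Mir708 and 84 lower than Mir28, with 21.7% of all tested features called lower and 1.17% higher. Scaling by library reads alone moved the median of all features by -0.20, 0.70 and 0.91 in the 3 comparisons.

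**Figure D3:**
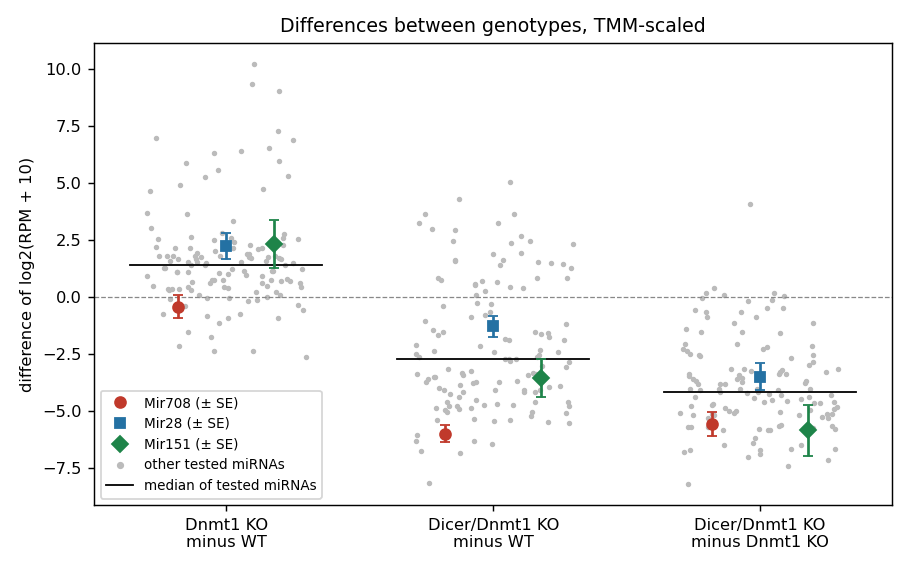
Fitted differences in log2(RPM + 10) between genotypes for Mir708, Mir28 and Mir151 (bars are ± SE), the other tested miRNAs (grey) and the median of the 133 tested miRNAs (black line). Mir708 lies below the median line in all 3 comparisons, Mir28 lies above it in all 3, and Mir151 lies above it in the first and below it in the others.

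Mir151 (ENSMUSG00000065612), the tested relative, lies at chr15:73085245-73085312 on the minus strand in intron 25 of the 35-exon transcript Ptk2-204. Ptk2 encodes focal adhesion kinase. Its reads per library ran from 105 to 758 in WT, a level of 1293 to 11089 RPM with a median of 1429 RPM, and the 2 highest libraries were WT 2A at 11089 RPM and WT 2B at 5406 RPM. The other 4 WT libraries kept within 1293 to 1455 RPM.

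In Dnmt1 KO Mir151 measured 10949 and 10817 RPM, above 5 of the 6 WT libraries and level with WT 2A. The difference from WT was 2.31 in log2(RPM + 10) (SE 1.04) and did not pass the test (limma adjusted p 0.259). Without E14 2 it was 3.29 (SE 0.47, limma adjusted p 0.000747), and without WT 2A alone it was 2.95 (limma adjusted p 0.0167). This difference between Dnmt1 KO and WT was thus called or not called depending on that pair of WT libraries. The pooled ratio of Dnmt1 KO to WT was 4.72 with all libraries and 8.06 without E14 2.

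In Dicer/Dnmt1 KO Mir151 measured 653.3, 344.4, 614.9 and 119.4 RPM. It lay under every WT library, as did 12.9% of all tested features, and under both Dnmt1 KO libraries, as did 22.3%. It fell relative to WT, with a difference of -3.56 in log2(RPM + 10) (SE 0.82, limma adjusted p 0.00457), and relative to Dnmt1 KO, with a difference of -5.87 (SE 1.10, limma adjusted p 0.000916). When the reads of each culture were summed, the difference from WT was -3.15 (limma adjusted p 0.0574) and no longer passed, while the difference from Dnmt1 KO was -5.63 (limma adjusted p 0.0217). Without E14 2 the difference from WT was -2.25 (SE 0.38, limma adjusted p 0.000776).

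Side by side, the differences of Dnmt1 KO from WT were -0.43 for Mir708, 2.21 for Mir28 and 2.31 for Mir151. Those of Dicer/Dnmt1 KO from WT were -6.01, -1.30 and -3.56. These comparisons share the WT libraries. No test was made of whether the members differ from each other.

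The counts of the host genes were taken apart next, because a host's count includes the reads of its hairpin. In WT, 93.4% of the 516 Odz4 reads lay in Mir708, and in Dnmt1 KO 98.6% of 70, but in Dicer/Dnmt1 KO 1 of 10 reads did. Per length this was 4422 reads per kb in the hairpin against 0.046 reads per kb in the rest of Odz4 in WT. In Dicer/Dnmt1 KO the hairpin had 9.17 reads per kb, from its single read, against 0.0122 in the rest of the gene.

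In Lpp, Mir28 took 81.4% of 177 reads in WT, 97.2% of 143 in Dnmt1 KO and 43.1% of 51 in Dicer/Dnmt1 KO. The density in Mir28 was 1674, 1616 and 256 reads per kb in these groups, and 0.0551, 0.00668 and 0.0484 reads per kb in the rest of Lpp. The remaining Mir28 reads in Dicer/Dnmt1 KO were therefore concentrated in the hairpin and did not lie at the density of the rest of the intron-bearing gene. Densities are sums over groups of unequal depth, so they compare a hairpin with its host and not the groups.

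The reads outside the hairpins were few, and no difference between genotypes passed the test. Outside Mir708, Odz4 had 13, 4, 0, 7, 1 and 9 reads in WT, with cultures and letters in order, 0 and 1 in Dnmt1 KO, and 0, 0, 0 and 9 in the Dicer/Dnmt1 KO libraries. Outside Mir28, Lpp had 11, 6, 0, 5, 1 and 10 reads in WT and 2 and 2 in Dnmt1 KO. The Dicer/Dnmt1 KO libraries had 1, 1, 6 and 21 such reads. In both hosts library 2B held most of the Dicer/Dnmt1 KO reads.

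Across the 6 comparisons (2 hosts, 3 contrasts) the smallest p was 0.2, for Odz4 between Dicer/Dnmt1 KO and WT at -1.23 in log2(RPM + 10) (two-sided exact permutation test, Benjamini-Hochberg adjusted p 0.438). For Lpp the same contrast was 0.89 (exact permutation p 0.219, adjusted p 0.438). The smallest p these tests can give is 0.00952 for Dicer/Dnmt1 KO against WT, 0.0714 for Dnmt1 KO against WT and 0.133 between the knockouts, so the last 2 contrasts could not have reached 0.05. These tests exchange A and B libraries freely. With A and B summed, Dicer/Dnmt1 KO against WT is 2 against 3 cultures and cannot go below 0.2. Dnmt1 KO against WT is then 1 against 3 cultures and cannot go below 0.5. The lowest adjusted p over the 6 comparisons with A and B summed was 0.96 (exact permutation tests). For Lpp between Dnmt1 KO and WT, where Mir28 was 4.2 times higher in pooled RPM, the rest of the gene differed by 0.14 (exact permutation p 1), on 4 reads in Dnmt1 KO. At this depth a difference in host RNA of 20 to 24 nt was not detectable, and host mRNA was not measured by these libraries.

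**Figure D4:**
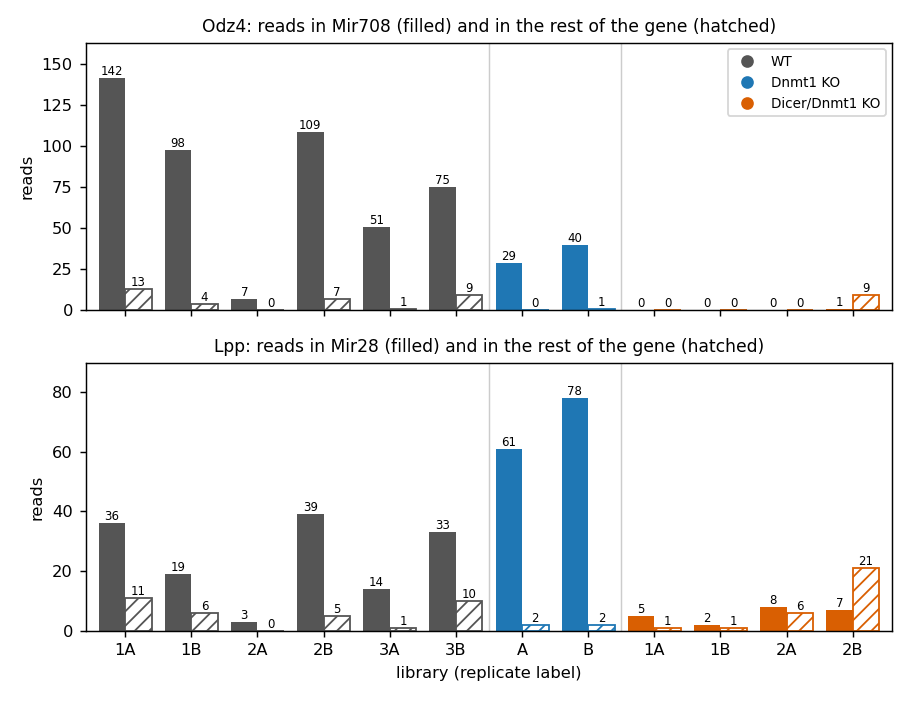
Reads per library in the hairpins (filled bars) and in the rest of their host genes (hatched bars), with the counts above the bars. Mir708 holds most Odz4 reads in WT and Dnmt1 KO, Mir28 holds 61 and 78 reads against 2 and 2 in the rest of Lpp in Dnmt1 KO, and Dicer/Dnmt1 KO 2B has 9 reads in the rest of Odz4 and 21 in the rest of Lpp.

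Both hairpins belong to the miRNAs that lie inside another gene on the same strand, of which 61 of 644 annotated ones passed the filter on low values. Between Dnmt1 KO and WT, 11 of the 61 rose and 0 fell (limma adjusted p under 0.05; 0 fell also at an unadjusted p under 0.05 and with voom), with a median of 1.23 in log2(RPM + 10) and quartiles of 0.44 and 1.91. The 11 calls became 24 without E14 2 and 5 with library reads alone. Of the 72 other tested miRNAs 17 rose and 1 fell, with a median of 1.61. Against these quartiles Mir708 at -0.43 lay below the lower one and Mir28 at 2.21 above the upper one.

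Between Dicer/Dnmt1 KO and WT, 43 of the 61 fell and 5 rose (median -3.37, quartiles -4.11 and -1.61). Of the 72 others 38 fell and 11 rose (median -2.26). Between Dicer/Dnmt1 KO and Dnmt1 KO, 50 of the 61 and 49 of the 72 fell, with medians of -4.06 and -4.26. None rose with limma or with voom, and at an unadjusted p under 0.05 0 of the 61 and 1 of the 72 did. The counts include the pair itself and do not set the class apart from other miRNAs, since no test of the classes was made.

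The 4 most abundant miRNAs of this class, apart from the pair, are given for comparison. Mir92-1 in Mir17hg, a member of the miR-17-92 cluster that is abundant in ESCs, and Mir25 in Mcm7 fell in Dicer/Dnmt1 KO relative to WT, with differences of -6.78 and -5.55 in log2(RPM + 10) (limma adjusted p 4.1e-07 and 2.2e-06). Mir92-1 has a near-identical copy in the genome, so its reads are uncertain. Mir21 in Vmp1 and Mir22, which lies inside both 2210403K04Rik and Tlcd2, differed by -0.66 and -0.78 in that comparison. They did not pass (limma adjusted p 0.186 and 0.241).

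Between Dnmt1 KO and WT, Mir21 rose by 1.73 (SE 0.41, limma adjusted p 0.0216) and Mir22 by 2.62 (SE 0.54, limma adjusted p 0.00762). Mir92-1 differed by -0.05 (limma adjusted p 0.98) and Mir25 by 1.28 (limma adjusted p 0.321). Mir28 at 2.21 and -1.30 lay closer to the values of Mir22, and Mir708 at -0.43 and -6.01 closer to those of Mir92-1.

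The features whose profile over the 12 libraries was most like that of each member were named by Pearson's r of scaled log2(RPM + 10) over 681 features. For Mir708 these were Mir363 (r = 0.99), Mir200a (0.98), Mir17 (0.98), Mir17hg (0.98), which is the host of Mir17, and Mir292 (0.98). Their differences between Dicer/Dnmt1 KO and WT ran from -6.64 to -4.26, and those between Dnmt1 KO and WT from -0.86 to 0.70. Mir292 is one of the miR-290 cluster, the most abundant miRNA cluster of mouse ESCs, and Mir363 belongs to the X-linked relative of the miR-17-92 cluster.

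For Mir28 they were Mir26b (r = 0.94), its host Ctdsp1 (0.93), Mir22 (0.92) and the overlapping features Tlcd2 (0.92) and 2210403K04Rik (0.92), which share the reads of Mir22. All 5 differed between Dnmt1 KO and WT by 2.52 to 2.62. Mir151 followed at rank 6 (r = 0.92). Mir28 and Mir708 were far from each other, with r = 0.66, which put Mir28 at rank 139 for Mir708 and Mir708 at rank 105 for Mir28. The libraries share genotypes and depth, so these r values describe likeness of profile only.

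The genes that make miRNAs could not be followed in these libraries. Of 13 genes for miRNA maturation and loading (such as Drosha, Dgcr8, Xpo5, Dicer1 and the Argonaute genes Eif2c1 to Eif2c4), 0 passed the filter, and none had more than 9 reads in a library. Among 12 miRNAs typical of ESCs, from the miR-290 and miR-302 clusters, 10 were tested. All 10 fell between Dicer/Dnmt1 KO and WT (median -5.39) and 9 of 10 fell between Dicer/Dnmt1 KO and Dnmt1 KO. Of all tested features, 19.0% and 21.7% were called lower in these comparisons. The medians of all 133 tested miRNAs were -2.75 and -4.17, so a fall was not particular to this list. Between Dnmt1 KO and WT 0 passed with limma, 1 was higher and 1 lower at an unadjusted p under 0.05, and voom called 2 lower. Mir708 at -6.01 lay near -5.39, the median of the tested ESC miRNAs between Dicer/Dnmt1 KO and WT.

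The summed level of markers of another cell type was highest in Dnmt1 KO, as was Mir28, and in Dicer/Dnmt1 KO the single markers went different ways. Of 13 miRNAs typical of fibroblasts and other mesenchymal cells, 12 were in the table and 5 were tested, of which 3 rose between Dnmt1 KO and WT, namely Mir22, Mir21 and Mir143 (3.63, limma adjusted p 0.00506). The median difference of the 5 was 1.73, against 1.40 for all tested miRNAs, and 6.59% of all tested features were called higher. The summed level of the 12 was 9862 to 15492 RPM in WT and 41313 and 49207 RPM in Dnmt1 KO, where Mir28 was also highest. It was 12541 to 40802 RPM in the Dicer/Dnmt1 KO libraries, with a median of 23386 RPM against 12233 RPM in WT. Mir28 had medians of 165.1 RPM in Dicer/Dnmt1 KO and 189.9 RPM in WT. Of the 5 tested, 1 was called higher in Dicer/Dnmt1 KO than in WT, Mir143 (2.95, limma adjusted p 0.0009), and 0 lower. The others did not pass, at 1.62 for Mir10a, -0.34 for Mir10b, -0.66 for Mir21 and -0.78 for Mir22. Mir28 was at -1.30 in this comparison. Of all tested features, 5.12% were called higher and 19.0% lower. Of the defining members, Mir199a-1 had 0 reads in all libraries and Mir199a-2 had 1 read. Mir214 had 1 read in WT, 6 in Dnmt1 KO and 9 in Dicer/Dnmt1 KO, and Mir145 had 4, 7 and 7, although the WT libraries held the most reads. The methods describe ESC culture with or without feeders, and the labels used here do not say which applied to a library. The part of other cells in the level of Mir28 was not tested. Of 13 neural miRNAs 7 were in the table and 0 passed the filter, and their summed level was at most 159.8 RPM.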

How the data were processed

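Small RNA was sequenced in 12 libraries. The submitters' processing notes name Trim Galore (0.3.5) for trimming and Bowtie2 (2.2.6) with genome build NCBIM37. The authors restricted reads to 20 to 24 nt before they quantified annotated features. The deposited values were log2 RPM, in which 0 reads stand as 0.9 read. Whole reads were recovered for 100.0% of the values (tolerance 0.02 read). A further 89 columns belonging to no sample of the series were not used. How reads with several positions were placed is not given in the sources used here, and reads were counted without regard to strand.

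Members, lists and tests were chosen with earlier results of these data known. A total of 683 features passed a filter of 15 reads overall and of 111.3 RPM (10 reads at the median depth) in 2 or more libraries. Libraries were scaled by TMM, with 30% of log ratios and 5% of abundances trimmed. The trend method of limma 3.58.1, in R 4.3.3, was fitted to log2(RPM + 10) over all 3 groups, without covariates, with Benjamini-Hochberg adjustment at 0.05, and was tested on simulated data. A fold change on this scale understates changes at low levels. Host reads outside hairpins were compared by two-sided exact permutation tests (SciPy 1.17.1). Besides the pair, the text names Mir151 and Mir28b of the same family, hosts, genotype checks, the 5 features most like each member and the 4 most abundant same-strand intragenic miRNAs. Features were matched by interval, strand and symbol to a GENCODE annotation of NCBIM37. A and B libraries of a culture differed beyond sampling noise (chi-square per degree of freedom 13.56 to 42.54) and were kept as separate samples. Such a spread does not show that A and B are independent cultures. With culture as a random effect, the estimated correlation of A and B was 0.302. Alternatives covered scaling, pseudocount, filter, voom, sums per culture, culture as a random effect, a replicate block, E14 2 and each library left out.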

Additional observations from a re-analysis of the deposited data

Results flagged for a closer look

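The library Dicer/Dnmt1 KO 2B stood apart from the other 3 libraries of its group in 3 of the 12 groups of values that were checked for a sample far from the rest. It had 6.64 RPM of Mir708, from 1 read, where the others had 0 reads. It had 59.7 RPM of Odz4 outside Mir708, from 9 reads, where the others had 0 reads. Its Mir708 share of the reads of both hairpins was 12.5%, where the others were at 0%. The other 3 libraries are tied at 0 in each case, so any read in 2B separates it from them, and 2 of the 3 values rest on the same single read. The rate of about 1 in 20 groups picked out by chance does not apply to such ties. Library 2B was the deepest library of its group, with 150701 reads against 8710 to 63428.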

How the results depend on the processing

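Mir708 and Mir28 kept the direction of all 3 fitted differences under every setting of the fit. As a share of miRNA reads, Mir28 had a median of 0.147% in Dicer/Dnmt1 KO, against 0.0522% in WT and 0.127% in Dnmt1 KO. The Dicer/Dnmt1 KO libraries ran from 0.0651% to 0.344% on 2 to 8 reads each. That range spans the Dnmt1 KO values of 0.116% and 0.138%, so no order of these groups is read from it. With a pseudocount of 1 RPM the difference of Mir708 was -8.77 between Dicer/Dnmt1 KO and WT and -8.33 between the knockouts, and with 50 RPM it was -3.91 and -3.50, since 3 libraries have 0 reads. With library reads alone, Mir708 differed by -5.17 between the knockouts, and Mir28 by -0.49 from WT and by -2.54 between the knockouts. For Mir151, the difference of 2.31 between Dnmt1 KO and WT became 3.29 without E14 2 and ran from 2.01 to 2.95 with each library left out, where only the value without WT 2A passed the test. Its difference between Dicer/Dnmt1 KO and WT was -3.15 with A and B summed and did not pass. The count of features called between Dnmt1 KO and WT, 47, was 31 with 1 RPM, 80 with voom, 12 with A and B summed, 30 with culture as a random effect, 181 without E14 2, and 15 to 97 with each library left out. The lowest, 15, came without either Dnmt1 KO library, which leaves 1 sample assumed to vary like the other groups, and the highest without WT 2A. Calls among same-strand intragenic miRNAs in that comparison, 11, were 5 with library reads alone and 24 without E14 2. In these counts the cause was not tested. Differences near 0 in host reads changed sign. Lpp outside Mir28 between Dnmt1 KO and WT (0.14) was -0.13 with library reads alone, -0.01 with 50 RPM, -0.47 with A and B summed, -0.18 without E14 2 and -0.25 to 0.41 with each library left out. Odz4 outside Mir708 between the knockouts (0.12) was -0.38 with 1 RPM and -0.57 to 0.7 with each library left out.

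Replicate numbers shared by WT and Dicer/Dnmt1 KO name no shared culture, and deviations of same-numbered libraries correlated between -0.28 and 0.11, with 1 of 4 correlating best with its own number. With the replicate block, Dicer/Dnmt1 KO differed from WT by -6.19 for Mir708, -1.22 for Mir28 and -3.95 for Mir151 (limma adjusted p 0.00721), and 115 features were called in place of 165. Depth limits what 0 reads can show, most of all in Dicer/Dnmt1 KO 1B, where 3 reads are 344.4 RPM.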
